A study of Mus musculus with 6 samples.

Results

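The proteasome genes of the young mouse heart were compared between Hspa4-/- and Hspa4+/+ ventricles, subcomplex by subcomplex. Every probe set whose gene symbol was Psma, Psmb, Psmc, Psmd, Psme, Psmf or Psmg followed by a digit was taken, which gave 49 genes of the 20239 genes tested, each with 1 probe set. They fall into 8 genes of the 20S alpha ring, 7 of the 20S beta ring, 3 immunoproteasome subunits, 9 of the base, 8 of the lid, 5 activators and inhibitors and 7 assembly factors. The remaining 2 genes, Psmc3ip and Psme3ip1, were taken by the rule for their symbols, although they encode partner proteins and not proteasome subunits. No named probe set for Psmb5, the catalytic subunit that immunoproteasomes exchange for Psmb8, was analysed here.

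Affymetrix Mouse Gene 1.0 ST arrays measured total RNA from heart ventricles of male mice aged 3.5 weeks on a 129/Sv background. The groups were 3 arrays labelled Hspa4-/- and 3 labelled Hspa4+/+ (wild type), and the labels give 3 mice for each genotype, 1 array per mouse by that count. The labels name no other allele or treatment in either group, and do not say where Hspa4 was disrupted. Values are on the log2 scale, and a difference is the mean of the Hspa4-/- arrays minus the wild-type mean, with the SE of limma, a linear model that pools information on the spread across genes.

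The proteasome is the main protease of the cytosol and nucleus and degrades proteins tagged with ubiquitin. Its 20S core is a barrel of stacked rings: the outer alpha rings gate the entrance and the inner beta rings hold the proteolytic sites. A 19S particle docks on the core, with a base that carries the ATPases and unfolds substrates and a lid that removes ubiquitin. Other activators open the core without ATP, and chaperones that are no part of the finished particle assist its assembly. In heart muscle the proteasome turns over sarcomere and misfolded proteins, and chaperones such as HSPA4, which exchanges nucleotide on Hsp70, act upstream of it.

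Hspa4 itself showed that 1 array goes against its label. Its value was 9.33, 6.63 and 6.75 on Hspa4-/- replicates 1, 2 and 3, against 9.74, 9.50 and 9.48 in wild type. With all arrays its difference was −2.01 (SE 0.58; limma, adjusted p = 0.263; exact permutation test, two-sided, p = 0.1, which is the floor for 3 against 3 arrays). Xist, an RNA of female cells, read 7.68 on the array labelled Hspa4-/- replicate 1 and between 5.51 and 5.69 on the others, although all arrays are labelled male. The Y-linked genes were present on that array too: Eif2s3y read 7.96 there and 8.23 to 8.39 on the others, Uty 7.92 and 8.15 to 8.57, and Kdm5d 6.85 and 6.77 to 7.10. The main results are therefore given on 6 arrays and on the 5 arrays left without it; values listed for Hspa4-/- hearts are those of the arrays so labelled, in the order of replicates 1, 2 and 3. Cardiomyocyte markers were high on every array, as the tissue label says (Myh6 12.56 to 12.65 in Hspa4-/- and 12.48 to 12.59 in wild type). The differences of all 6 such markers were above 0, as were those of 9278 of all 20239 genes. In 3 of the 6 the groups did not overlap (Myl2, Pln and Ryr2, named after their values were seen), as in 6.08% of all genes in this direction. The summed linear level of the 6 markers was 40350 to 41010 in Hspa4-/- hearts and 37240 to 39790 in wild type. The part of this in the results below was not tested. The arrays also differed in spread: the SD over all probe sets was 1.20 on the array labelled Hspa4-/- replicate 1 and 1.19 on wild-type replicate 3, and between 1.23 and 1.27 on the other 4.

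Across the whole proteasome, transcript levels were close between the genotypes. With 6 arrays, 0 of 49 genes passed an adjusted p of 0.05 (limma, Benjamini-Hochberg over all genes), where 0% of all genes passed. At an unadjusted p under 0.05, 4 members were higher in Hspa4-/- hearts (Psmb3, Psmb4, Psmb10 and Psme1), where 5.64% of all genes were, and 2 were lower (Psmd7 and Psme4), where 5.53% were. The 6 of 49 stand near the 11.2% of all genes called in either direction, and the 6 became 2, 1 and 3 without Hspa4-/- replicate 2, Hspa4-/- replicate 3 and wild-type replicate 3. The median difference of the 49 was 0.04, beside −0.01 for all genes, with 30 above 0 and 19 below; with 1 array left out it lay between −3e-04 and 0.08. Single genes lay between −0.27 and 0.34. In bulk RNA, fewer cells of a type and less RNA per cell cannot be told apart.

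On the 5 arrays the picture was similar. Again 0 of 49 passed the adjusted threshold, where 0.44% of all genes passed; without wild-type replicate 2 as well, Psme1 and Psmb3 did among 875 genes in all. In that setting 9 members were higher at an unadjusted p under 0.05 and 2 lower, where 11.8% and 8.57% of all genes were. At an unadjusted p under 0.05, 6 were higher (Psmb1, Psmb3, Psmb4, Psmd11, Psmd13 and Psme1), where 8.55% of all genes were, and Psme4 was lower, where 6.36% were, so that 7 of 49 were called where 14.9% of all genes were. The median was 0.08, beside −0.02 for all genes, with 31 above 0 and 18 below. The precision was enough to bound most members: the unadjusted 95% interval lay inside a 1.5-fold change in either direction for 48 of 49 genes on 6 arrays and 47 on 5, and inside 2-fold for all 49 in both forms. The exceptions were Psmb3 on 6 arrays, with an upper bound of 0.63, and Psmb3 and Psme1 on 5. The values of Hspa4-/- replicates 2 and 3 lay above all wild-type values in 14 of 49 members, a larger share than the 14.4% of all genes that did so. They lay below all wild-type values in 3 of 49, a smaller share than the 18.9% of all genes. On 6 arrays such groups without overlap numbered 2 higher (6.08% of all genes) and 2 lower (9.07%).

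**Figure D1:**
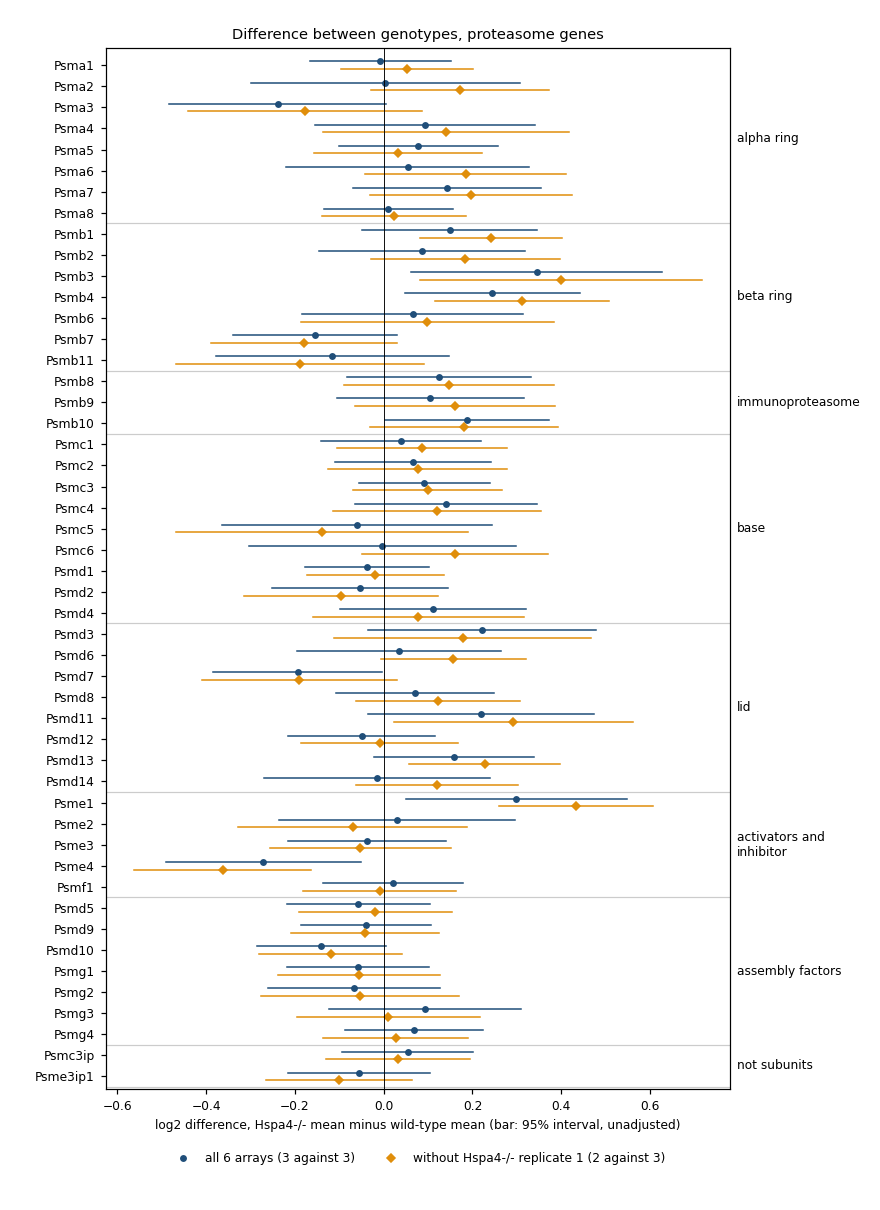
Log2 difference between the Hspa4-/- and wild-type means (x axis) for each of the 49 genes (y axis, by subcomplex), with all 6 arrays (circles) and without the array labelled Hspa4-/- replicate 1 (diamonds); bars are unadjusted 95% intervals. Most bars cross 0, and the bars reaching farthest are those of Psmb3 and Psme1 to the right and Psme4 to the left.

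On 6 arrays the lean towards higher values depended on single arrays of both genotypes. Wild-type replicate 3 had the lowest of the 6 values in 21 of 49 members, or 42.9%, where it was lowest in 15.1% of all genes. The array labelled Hspa4-/- replicate 1 was lowest in another 12 members, or 24.5%, against 17.6% of all genes. Without Hspa4-/- replicate 2, 22 of 49 differences were below 0, with 0 members higher and 2 lower at an unadjusted p under 0.05, where 4.13% of all genes were higher and 4.33% lower. Without Hspa4-/- replicate 3, 25 were below 0, with 0 higher and 1 lower, where 3.83% of all genes were higher and 4.98% lower. Without wild-type replicate 3, 22 were below 0, with 0 higher and 3 lower (Psma3, Psmd7 and Psme4), where 3.05% of all genes were higher and 4.58% lower. Each of these counts of lower members is near its background. Without Hspa4-/- replicate 2 or 3, the array labelled Hspa4-/- replicate 1 is 1 of the 2 left in its group. On the 5 arrays the median of the 49 stayed above 0 with any 1 more array left out (0.0395 to 0.068). The part of array quality in this was not tested.

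**Figure D2:**
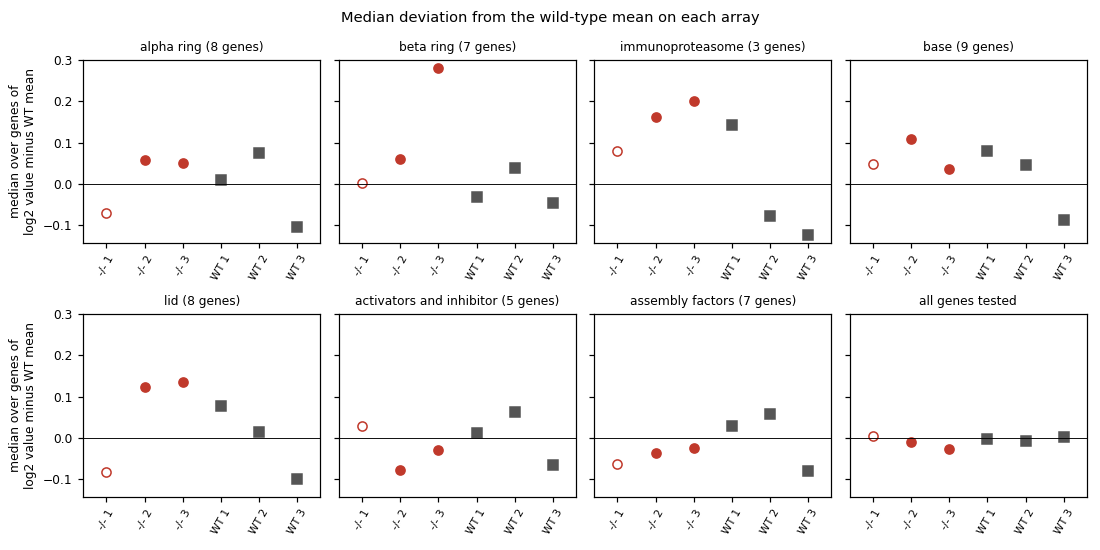
Median over the genes of each subcomplex of the log2 value minus the wild-type mean (y axis) on each array (x axis; red circles Hspa4-/-, open for replicate 1, grey squares wild type). Wild-type replicate 3 is the lowest wild-type array in every subcomplex, at −0.12 for the immunoproteasome, while the median over all genes stays between −0.03 and 0.01 on every array.

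The alpha ring, whose N-terminal tails form the gate of the core, showed small differences in both directions. On 6 arrays its 8 genes had a median difference of 0.03, from −0.24 for Psma3 to 0.14 for Psma7. Of the 8, 0 had an unadjusted p under 0.05, where 11.2% of all genes did. Psma3 read 6.71, 6.79 and 6.99 in Hspa4-/- hearts, against 7.26, 7.05 and 6.88 in wild type. The groups overlap, since the lowest wild-type array lies below the highest Hspa4-/- array (difference −0.24, SE 0.11; limma, adjusted p = 0.457). Psma7 read 7.24, 7.42 and 7.38 in Hspa4-/- hearts, against 7.22, 7.36 and 7.02 in wild type, with overlapping groups (0.14, SE 0.09; limma, adjusted p = 0.646). Psma5 differed by 0.08 (SE 0.08; limma, adjusted p = 0.792).

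Alpha ring genes also varied among the Hspa4-/- arrays. On the arrays labelled Hspa4-/- replicates 2 and 3, 7 of 8 genes stood above the wild-type mean on average, with a median difference of 0.10. The array labelled Hspa4-/- replicate 1 stood −0.36 from the wild-type mean at Psma3, −0.34 at Psma2 and −0.21 at Psma6. That array stood above the wild-type mean at Psma5 (0.17) and Psma7 (0.03). Psma8, the alpha subunit that replaces Psma7 in testis, differed by 0.01 (SE 0.06; limma, adjusted p = 0.976), and its values were 5.90, 5.91 and 5.97 in Hspa4-/- hearts and 5.98, 5.86 and 5.92 in wild type.

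**Figure D3:**
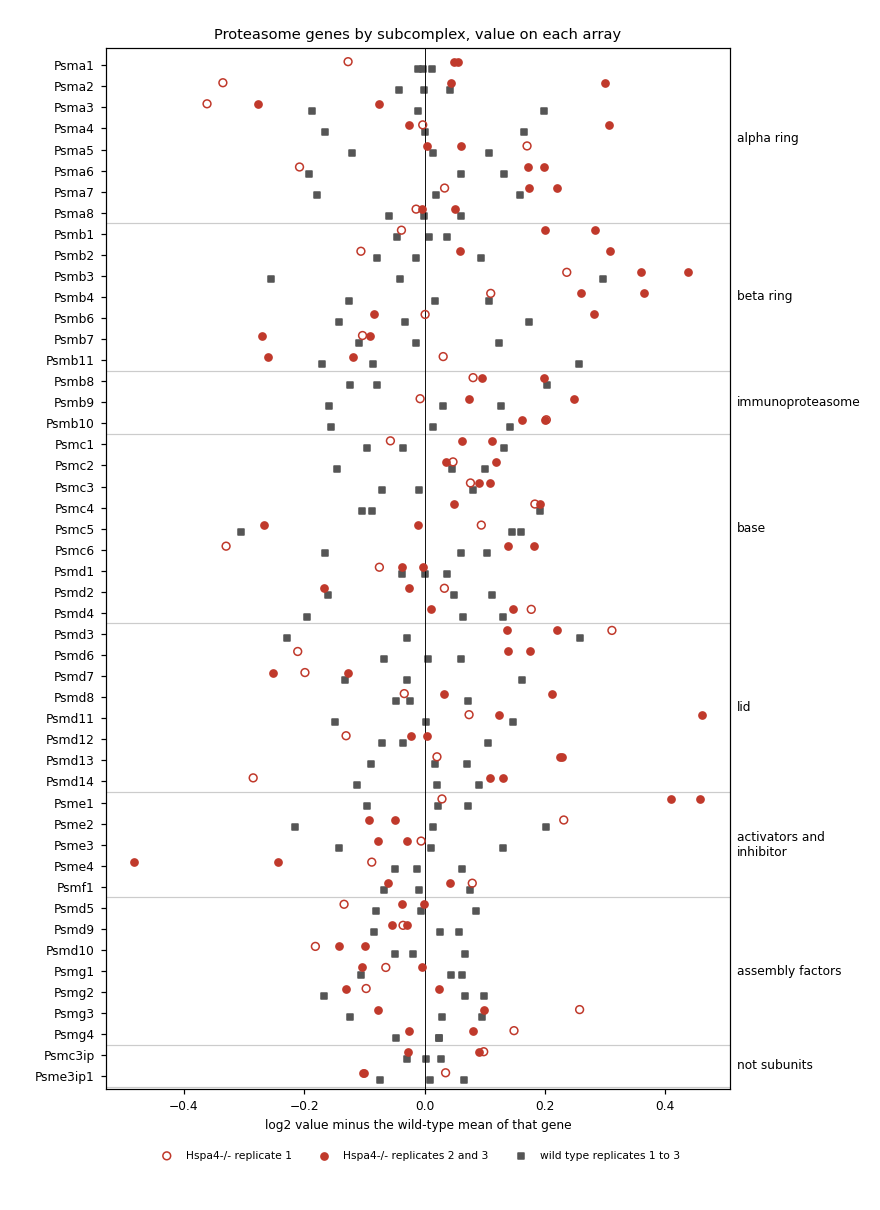
Log2 value minus the wild-type mean of the gene (x axis) for each of the 49 genes (y axis, by subcomplex) on each array: open red circles are Hspa4-/- replicate 1, filled red circles replicates 2 and 3, grey squares the 3 wild-type arrays. The 2 genotypes overlap for most genes, and the open circles of Psma2, Psma3, Psmc6 and Psmd14 lie left of the filled ones.

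The beta ring carried the largest positive differences of the core. Its 7 genes had a median of 0.09 on 6 arrays and 0.18 on 5, and −0.02 on the 5 arrays left without Hspa4-/- replicate 3. Psmb3, a noncatalytic beta subunit, read 8.01, 8.21 and 8.13 in Hspa4-/- hearts, against 7.73, 8.07 and 7.52 in wild type. Its Hspa4-/- values lie close together and wild-type replicate 2 lies among them (difference 0.34, SE 0.13; limma, adjusted p = 0.351). On 5 arrays the difference was 0.40 (SE 0.14; limma, adjusted p = 0.237).

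Psmb4, another noncatalytic subunit, was the core gene whose groups came apart on 6 arrays, if narrowly. It read 7.91, 8.05 and 8.16 in Hspa4-/- hearts, against 7.81, 7.90 and 7.67 in wild type. The lowest Hspa4-/- array and the highest wild-type array are nearly equal, and 6.08% of all genes had groups that did not overlap in this direction. The difference was 0.24 on 6 arrays (SE 0.09; limma, adjusted p = 0.344) and 0.31 on 5 (SE 0.09; limma, adjusted p = 0.152).

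Psmb1, also noncatalytic in mammals, read 7.12, 7.44 and 7.36 in Hspa4-/- hearts and 7.17, 7.20 and 7.11 in wild type. On the array labelled Hspa4-/- replicate 1 it lies within the wild-type range and on the other 2 above it, so the difference was 0.15 on 6 arrays (limma, adjusted p = 0.589) and 0.24 on 5 (SE 0.07; limma, adjusted p = 0.170). Of the catalytic subunits, Psmb7, which carries the trypsin-like site, differed by −0.15 on 6 arrays (SE 0.08; limma, adjusted p = 0.539). Psmb6, which carries the caspase-like site, differed by 0.07 (SE 0.11; limma, adjusted p = 0.890). Psmb11, the beta subunit of thymus epithelium, differed by −0.12 (SE 0.12; limma, adjusted p = 0.790).

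The immunoproteasome subunits Psmb8, Psmb9 and Psmb10 are induced by interferon and replace the catalytic beta subunits to favour antigenic peptides. All 3 were higher on average in Hspa4-/- hearts, with a median difference of 0.12 on 6 arrays, 0.16 on 5 and 0.23 on the arrays left without wild-type replicate 1, and 0 passed the adjusted threshold. Psmb10 read 7.19, 7.15 and 7.19 in Hspa4-/- hearts, against 7.14, 7.01 and 6.84 in wild type. Its groups do not overlap, and the Hspa4-/- arrays lie within a narrower range than the wild-type arrays (0.19, SE 0.08; limma, adjusted p = 0.439). Psmb8 differed by 0.12 (SE 0.09; limma, adjusted p = 0.692) and Psmb9 by 0.11 (SE 0.09; limma, adjusted p = 0.754), both with overlapping groups.

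Psmb10 takes the place of Psmb7. Their differences have opposite signs, so by arithmetic the ratio between them differed more than either gene alone. Relative to its wild-type mean, the log2 ratio of Psmb10 to Psmb7 was 0.30, 0.43 and 0.29 in Hspa4-/- hearts, against 0.02, 0.12 and −0.14 in wild type. The groups do not overlap (difference 0.34; exact permutation test, two-sided, p = 0.1, the floor of this design; 0.4 after Benjamini-Hochberg adjustment over the 4 ratios computed). The ratio of Psmb9 to Psmb6, the other pair measured, differed by 0.04 with overlapping groups (exact permutation p = 0.9, adjusted 0.9). Neither ratio passed after adjustment, and a ratio does not tell which of its 2 probe sets changed.

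The Psmb9 gene sits head to head with Tap1, a peptide transporter gene, and the stretch between their starts is shown because it lies upstream of both genes, which were both measured. It spans 225 bases at chr17:34187331-34187555 (RefSeq, GRCm38.p6), printed on the minus strand toward Psmb9, with capitals marking the only match to the heat shock element core GAANNTTC.
Psmb9-Tap1: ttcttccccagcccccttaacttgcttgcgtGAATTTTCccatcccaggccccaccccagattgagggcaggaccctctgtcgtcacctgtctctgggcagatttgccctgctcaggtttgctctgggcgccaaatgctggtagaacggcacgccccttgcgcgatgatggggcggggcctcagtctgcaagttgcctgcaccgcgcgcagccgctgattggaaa
Tap1 read 6.71, 7.08 and 7.17 in Hspa4-/- hearts, against 6.50, 6.63 and 6.56 in wild type. All Hspa4-/- arrays lie above all wild-type arrays, the array labelled Hspa4-/- replicate 1 nearest to them. The difference was 0.42 on 6 arrays (SE 0.11; limma, adjusted p = 0.245), and on 5 arrays Tap1 rose 1.48-fold (0.56, SE 0.07; limma, adjusted p = 0.0237). With 1 more array left out, Tap1 passed without wild-type replicate 2 (adjusted p = 0.0107) but not without Hspa4-/- replicate 2 or 3 or wild-type replicate 1 or 3, where the adjusted p lay between 0.0811 and 0.175. Psmb9, its neighbour, read 7.32, 7.40 and 7.57 in Hspa4-/- hearts, against 7.36, 7.17 and 7.46 in wild type, with overlapping groups.

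Other antigen processing and interferon response genes were examined beside the immunoproteasome. Of 16 genes listed, 14 were measured, and on 6 arrays 3 were higher at an unadjusted p under 0.05, namely Tap1, Tap2 and Irf1, and 0 lower, where 5.64% of all genes were higher and 5.53% lower. On 5 arrays 6 were higher and 0 lower, where 8.55% and 6.36% of all genes were, and Tap1 passed the adjusted threshold. Tap2, the partner of Tap1, read 7.13, 7.11 and 7.25 in Hspa4-/- hearts, against 6.91, 6.87 and 7.01 in wild type. These groups do not overlap (0.23, SE 0.07; limma, adjusted p = 0.276). The list was not uniform: on 6 arrays 9 of the 14 differences were above 0 and 5 below. The lowest was that of B2m (−0.16, SE 0.11), and the interferon-induced genes Ifit1 and Ifit3 differed by −0.06 and −0.03. B2m, Ifit1 and Ifit3 were, like Irf1, named after their values were seen.

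Macrophages and lymphocytes carry immunoproteasomes, and the macrophage markers were mostly lower on average in Hspa4-/- hearts. Of 9 macrophage markers 7 were below 0 on 6 arrays, as were 10961 of all 20239 genes. At an unadjusted p under 0.05, 3 were lower and 1 higher, where 5.53% and 5.64% of all genes were. The summed linear level of the 9 markers was 1506 to 1589 in Hspa4-/- hearts and 1625 to 1701 in wild type. The macrophage mannose receptor Mrc1, named after its values were seen, differed by −0.50 (SE 0.13; limma, adjusted p = 0.239). The complement gene C1qc, named in the same way, was the marker that was higher (0.21, SE 0.09; limma, adjusted p = 0.442). The 6 measured lymphocyte markers of 7 listed summed to 360.3 to 404.9 in Hspa4-/- hearts and 372.6 to 416.1 in wild type, with overlapping groups. Of these 6, 4 were below 0 and 2 above on 6 arrays, with 0 at an unadjusted p under 0.05. No marker is at 0 on this log2 scale, where the T cell gene Cd3e read 6.36 to 6.81 in Hspa4-/- hearts and 6.45 to 6.66 in wild type. The part of these cells in the differences above was not tested.

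**Figure D4:**
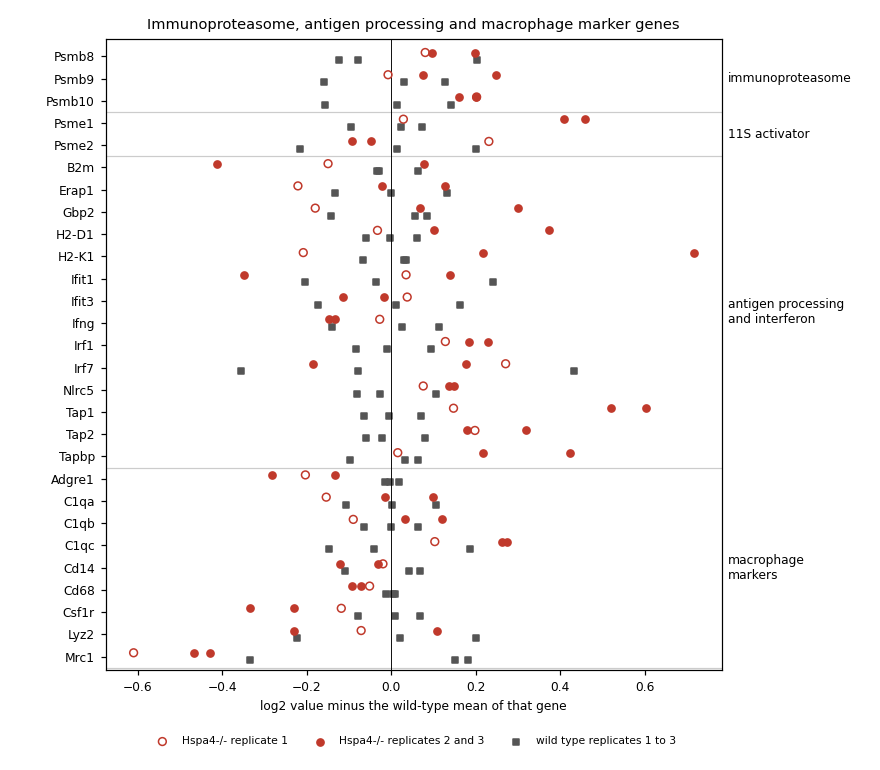
Log2 value minus the wild-type mean of the gene (x axis) for immunoproteasome subunits, 11S activator subunits, antigen processing and interferon genes and macrophage markers (y axis) on each array: open red circles are Hspa4-/- replicate 1, filled red circles replicates 2 and 3, grey squares wild type. All Hspa4-/- values of Psmb10, Tap1, Tap2 and Irf1 lie to the right of the wild-type values, and those of Csf1r, Adgre1, Cd68 and Mrc1, chosen after their values were seen, lie to the left.

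The 9 genes of the base, which includes the ring of ATPases Psmc1 to Psmc6 and the ubiquitin receptor Psmd4, differed little. Their median was 0.04 on 6 arrays and 0.08 on 5, within −0.06 to 0.14 on 6. In either form 0 had an unadjusted p under 0.05, where 11.2% of all genes did on 6 arrays and 14.9% on 5. The smallest p belonged to Psmc4, at 7.44, 7.30 and 7.45 in Hspa4-/- hearts and 7.15, 7.45 and 7.17 in wild type (0.14, SE 0.09; limma, adjusted p = 0.635). Wild-type replicate 2 equals the highest Hspa4-/- array at this precision. Psmc3 differed by 0.09 (SE 0.07; limma, adjusted p = 0.682) and Psmd4 by 0.11 (SE 0.09; limma, adjusted p = 0.739). At Psmc6, named for its values, the array labelled Hspa4-/- replicate 1 departs from the others. Psmc6 read 9.27 there, 9.78 and 9.74 on the other Hspa4-/- arrays, and 9.70, 9.43 and 9.66 in wild type. Over the base, the median value minus the wild-type mean was 0.05 on Hspa4-/- replicate 1.

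The lid is the part of the 19S particle that holds Psmd14, the metalloprotease that cuts ubiquitin chains off substrates. Its 8 genes had a median of 0.05 on 6 arrays and 0.14 on 5. Psmd7, which pairs with Psmd14, read 8.25, 8.32 and 8.20 in Hspa4-/- hearts, against 8.61, 8.42 and 8.32 in wild type. The highest Hspa4-/- array slightly exceeds the lowest wild-type array (−0.19, SE 0.08; limma, adjusted p = 0.440). Psmd14 itself differed by −0.015 on 6 arrays and 0.12 on 5, and its 6-array interval ran from −0.27 to 0.24.

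Other lid genes had higher averages. Psmd11, a scaffold subunit that promotes 26S assembly in human stem cells, read 8.81, 9.20 and 8.86 in Hspa4-/- hearts, against 8.88, 8.74 and 8.59 in wild type. One Hspa4-/- array, replicate 2, stands above the rest (0.22, SE 0.11; limma, adjusted p = 0.520). Psmd13 differed by 0.16 on 6 arrays (SE 0.08; limma, adjusted p = 0.508) and 0.23 on 5 (SE 0.07; limma, adjusted p = 0.207), and Psmd3 by 0.22 on 6 (SE 0.11; limma, adjusted p = 0.517).

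The activators, whose median was 0.02 on 6 arrays and −0.05 on 5, held both the largest positive and the largest negative difference on 5 arrays. Psme1 encodes the alpha subunit of the 11S activator PA28, which caps the core and, like the immunoproteasome, responds to interferon. It read 9.83, 10.25 and 10.21 in Hspa4-/- hearts, against 9.87, 9.82 and 9.70 in wild type. The arrays labelled Hspa4-/- replicates 2 and 3 stand apart from the rest, and replicate 1 lies among the wild-type arrays. The difference was 0.30 on 6 arrays (SE 0.11; limma, adjusted p = 0.358) and 0.43 on 5, or 1.35-fold (SE 0.08; limma, adjusted p = 0.0588), so Psme1 missed the threshold in both forms. It passed on 5 arrays under some other settings, with an adjusted p between 0.0283 and 0.0477 without wild-type replicate 2, with array weights, without the lowest 25% of genes and after quantile normalisation; its adjusted p lay between 0.0668 and 0.234 in the rest.

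Psme2 encodes the beta subunit that assembles with Psme1, and its values overlapped between the genotypes. It read 7.26, 6.94 and 6.98 in Hspa4-/- hearts, against 7.23, 6.82 and 7.05 in wild type (difference 0.03, SE 0.12; limma, adjusted p = 0.961). The log2 ratio of Psme1 to Psme2 relative to its wild-type mean was −0.20, 0.55 and 0.46 in Hspa4-/- hearts and −0.13, 0.24 and −0.11 in wild type (exact permutation p = 0.4, adjusted 0.533). The difference of Psme3, the nuclear PA28 gamma, was −0.04 (SE 0.08; limma, adjusted p = 0.918). Psmf1, the gene of the inhibitor PI31, differed by 0.02.

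Psme4 encodes PA200, a large single-chain activator linked to histone turnover. It read 10.57, 10.42 and 10.18 in Hspa4-/- hearts, against 10.61, 10.72 and 10.65 in wild type. All Hspa4-/- arrays lie below all wild-type arrays, a pattern found in 9.07% of all genes, and the array labelled Hspa4-/- replicate 1 lies just below the lowest wild-type array. The difference was −0.27 on 6 arrays (SE 0.10; limma, adjusted p = 0.346) and −0.36 on 5, or 1.29-fold lower (SE 0.09; limma, adjusted p = 0.111), so it did not pass. The log2 ratio of Psme1 to Psme4 relative to its wild-type mean was 0.12, 0.70 and 0.89 in Hspa4-/- hearts and 0.12, −0.04 and −0.08 in wild type. The groups overlap through the array labelled Hspa4-/- replicate 1 (difference 0.57; exact permutation test, two-sided, p = 0.2, adjusted 0.4), and without it the difference was 0.80. This ratio was not planned and joins the members with the largest positive and the largest negative difference on 5 arrays. Its size follows from their differences, so its p is no further test of either gene.

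**Figure D5:**
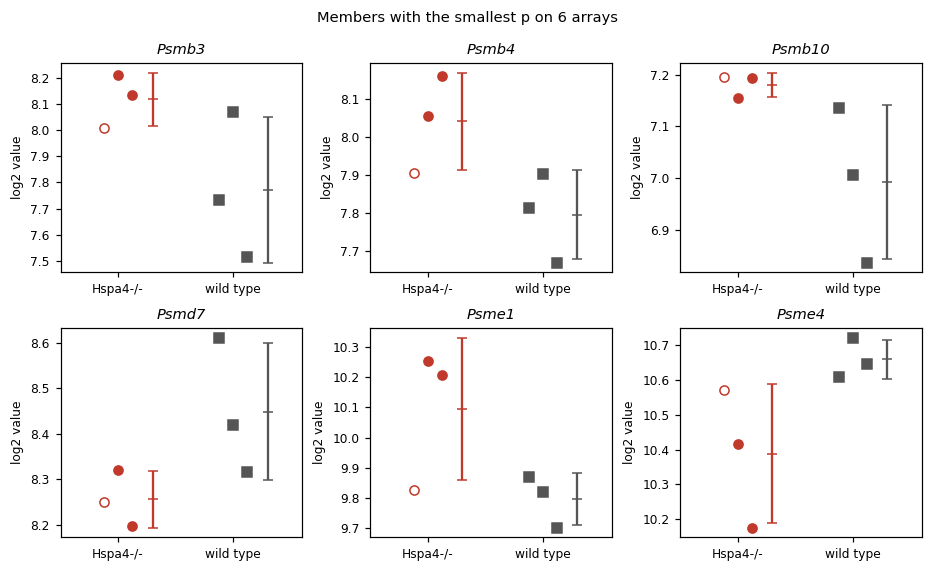
Log2 values (y axis) of the 6 members with an unadjusted p under 0.05 on 6 arrays, in Hspa4-/- hearts (red circles, open for replicate 1) and wild-type hearts (grey squares); bars are the mean and SD of 3 arrays. Psmb4, Psmb10 and Psme4 are the genes whose groups do not overlap, and for Psme1 the array labelled Hspa4-/- replicate 1 lies at the level of the wild-type arrays.

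The assembly factors differed little. Of 7 genes 5 were below 0 on 6 arrays and on 5, with a median of −0.06 and −0.04. In either form 0 had an unadjusted p under 0.05, where 11.2% of all genes did on 6 arrays and 14.9% on 5. Psmd10, known as gankyrin, a chaperone of the base that leaves before the particle is complete, read 6.78, 6.81 and 6.86 in Hspa4-/- hearts, against 7.02, 6.94 and 6.91 in wild type. Its groups do not overlap, though the gap is small (−0.14, SE 0.065; limma, adjusted p = 0.465). The core chaperone genes Psmg3 and Psmg4, whose products act together on the alpha ring, differed by 0.09 (SE 0.10; limma, adjusted p = 0.797) and 0.07 (SE 0.07; limma, adjusted p = 0.794). Outside the particle, Psmc3ip, a meiotic recombination factor, differed by 0.05 (limma, adjusted p = 0.837) and Psme3ip1, a partner of PA28 gamma, by −0.06 (limma, adjusted p = 0.846).

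Among enzymes that work on the proteasome, the docking deubiquitinases had lower values on every Hspa4-/- array than on any wild-type array, as 9.07% of all genes did. Of 12 listed associated enzymes and shuttle factors 10 were measured, and on 6 arrays 2 were lower and 1 higher at an unadjusted p under 0.05, where 5.53% and 5.64% of all genes were, with 7 of 10 differences above 0 and a median of 0.11. On 5 arrays 4 were higher and 1 lower, where 8.55% and 6.36% of all genes were. The lower ones, Uchl5 and Usp14, are the deubiquitinating enzymes that dock on the 19S base. Uchl5 read 8.05, 8.12 and 8.02 in Hspa4-/- hearts, against 8.53, 8.30 and 8.36 in wild type. The groups are clear of each other, with the array labelled Hspa4-/- replicate 1 among the others of its label (−0.33, SE 0.08; limma, adjusted p = 0.221). Usp14 read 7.81, 7.88 and 7.97 in Hspa4-/- hearts, against 8.12, 8.07 and 8.04 in wild type, again without overlap (−0.19, SE 0.07; limma, adjusted p = 0.350). The member of the list that was higher, the shuttle factor gene Rad23b, was named after its values were seen and differed by 0.19.

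Uba6, an enzyme that activates ubiquitin, was the only gene measured of 6 listed for ubiquitin and its activation. It read 7.98, 8.11 and 8.06 in Hspa4-/- hearts, against 8.55, 8.33 and 8.52 in wild type, with no overlap. The difference was −0.41 on 6 arrays (SE 0.08; limma, adjusted p = 0.210) and −0.38 on 5 (SE 0.08; limma, adjusted p = 0.0933); leaving out wild-type replicate 2 gave an adjusted p of 0.0445 with Hspa4-/- replicate 1 kept and 0.0199 with neither, and array weights gave 0.0488 on 6 arrays and 0.0477 on 5. Over all alternatives its adjusted p lay between 0.0445 and 0.794 on 6 arrays and between 0.0199 and 0.365 on 5. Ecpas, a scaffold that holds the core and the 19S particle together, was also below wild type on every Hspa4-/- array (−0.18, SE 0.06; limma, adjusted p = 0.333), while the lid subunit gene Sem1 differed by −0.15 and the core maturation factor gene Pomp by 0.05. Of 6 genes listed as other parts of the 26S particle or its assembly, 4 were measured.

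Transcription of proteasome subunits rests on Nfe2l1 (Nrf1), which raises them together when proteolysis falls short. Of the 5 genes listed for this control 4 were measured, and 0 had an unadjusted p under 0.05 in either form. Of all genes 11.2% did on 6 arrays and 14.9% on 5, so 0 of 4 is near the background. Nfe2l1 read 9.30, 9.13 and 9.38 in Hspa4-/- hearts, against 9.44, 9.37 and 9.47 in wild type (−0.15, SE 0.08; limma, adjusted p = 0.513). Only the highest Hspa4-/- array reaches the lowest wild-type array. Its relative Nfe2l2 (Nrf2) differed by 0.12 (SE 0.11; limma, adjusted p = 0.777).

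Promoters were searched because Nrf1 acts on subunit genes through an element they share. Windows from 250 bases before to 50 after each start were matched for 41 of the 49 members and 27025 genes in all (RefSeq, GRCm38.p6), on both strands. The antioxidant response element core TGACNNNGC, which Nrf1 and Nrf2 bind, was in 5 of the 41 (12.2%) and in 14.0% of all genes. GAANNTTC was in 2 (4.9%) and in 9.0% of all genes. The interferon response element, taken as GAAA repeated after a gap of 2 bases and added after the values of Psme1 were seen, was in 5 (12.2%) and in 4.0% of all genes. The 5 were Psme1, Psmb3, Psmd4, Psmd9 and Psmg4, of which Psmd4, Psmd9 and Psmg4 differed by 0.11, −0.04 and 0.07 on 6 arrays. Psmb9, an immunoproteasome gene whose window was searched, was not among them. The sites of the genes with the largest differences, and of Psmb6 as a catalytic core gene, are shown as 30 bases of the gene's own strand, with the match in capitals (on either strand).
Psme1, chr14:55578493-55578522 (+): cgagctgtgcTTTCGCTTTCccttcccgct
Psmb3, chr11:97703261-97703290 (+): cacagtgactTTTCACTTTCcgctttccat
Psme4, chr11:30771757-30771786 (+): gcgctgcggctGCAGCGTCAccagaagagc
Psmb6, chr11:70525337-70525366 (+): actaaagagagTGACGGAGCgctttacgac
The first 2 hold the interferon element and the last 2 the antioxidant element. A match is a description of the letters in this window and not a sign of binding.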

How the data were processed

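Per the labels' protocols, Trizol-extracted ventricle RNA was labelled with the Affymetrix WT kit and hybridised to Mouse Gene 1.0 ST arrays. The deposited values are log2 values per probe set, made by the authors with R 2.13.0 and affy, per the submitters' processing notes; how background, scaling between arrays and the probe summary were handled is not stated there. Signal over background was not analysed here, and 3 arrays a group set the precision.

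Of 21225 probe sets, 20239 had 1 symbol in the probe annotation and 986 none. Array medians were 6.42 to 6.48. A 2-group limma 3.58.1 model (R 4.3.3, lmFit and eBayes) was fitted over all 20239 genes without a filter, with Benjamini-Hochberg adjustment at 0.05, on 6 arrays and without the array labelled Hspa4-/- replicate 1; it was tested on simulated data. The Psma to Psmg members, related genes and markers were chosen with earlier results of these data known. Genes named by rule were the 3 of each subcomplex with the smallest p on 6 arrays and the 5 largest differences in each direction on 5. Catalytic pairs, tissue-restricted subunits, array check genes, and 2 of each related list with Nfe2l1, Nfe2l2 and Pomp were also named by rule. Psma2, Psma6 and Psmc6 were named for their values on the array labelled Hspa4-/- replicate 1. Psmd14, Psme2, Psmf1, Myh6 and Cd3e were also named outside the rule. The others are said to be chosen after their values were seen. The planned protein identities were not run.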

Additional observations from a re-analysis of the deposited data

How the results depend on the processing

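The count of 0 members past the adjusted threshold on 6 arrays held under all alternatives. Over all genes 0 passed under most of these too, and 2 to 115 under the others. The count of 0 therefore does not set the members apart from other genes. On 5 arrays Psme1 was the 1 member past it without the lowest 25% of genes, 1 after quantile normalisation and 1 with array weights. Array weights on 6 arrays gave 11 members at an unadjusted p under 0.05 (6 in the report), 6 higher and 5 lower, where 9.52% and 8.58% of all genes were and 115 of all genes passed the adjusted threshold (0 in the report). It also gave an activator median of −0.0503, a Hspa4 difference of −2.54, which passed, a Psma8 difference of −0.0064, and an adjusted p of 0.0488 for both Tap1 and Uba6; on 5 arrays Uba6 had 0.0477 with array weights. When 1 of the 6 arrays was left out, members at an unadjusted p under 0.05 numbered 1 to 7. Between 2.88% and 8.55% of all genes were then higher and between 3.29% and 6.36% lower. When 1 wild-type array was left out of the 5, such members numbered 8 to 11. Between 5.51% and 11.8% of all genes were then higher and between 4.55% and 8.57% lower. Members past the adjusted threshold then numbered 0 to 2 (Psme1 and Psmb3 without wild-type replicate 2). The median of the 49 members ranged from −3e-04 to 0.0771 on 6 arrays and from 0.0395 to 0.068 on 5. Subcomplex medians ranged from −0.0528 to 0.0606 for the activators, −0.0231 to 0.1834 for the beta ring, 0.0854 to 0.2259 for the immunoproteasome, −0.0157 to 0.0963 for the alpha ring, −0.009 to 0.1397 for the lid, 0.0027 to 0.0892 for the base and −0.0978 to −0.014 for the assembly factors, and the Hspa4 difference on 6 arrays from −2.89 to −1.54. With 1 of the 6 arrays left out, differences crossed 0 for Psma8 (−0.019 to 0.0404), Psmb11 (−0.201 to 0.0123), Psmb6 (−0.0414 to 0.153), Psme3 (−0.108 to 0.028), Nfe2l2 (−0.0127 to 0.2038) and Pomp (−0.1284 to 0.1893). With 1 of the 5 left out, they did so for Psma5 (−0.0276 to 0.0855), Psma8 (−0.0068 to 0.0526), Psmb6 (−0.0837 to 0.2808), Psmc3ip (−0.0271 to 0.0903), Psmd4 (−0.019 to 0.1455), Psme3 (−0.1238 to 0.0123), Psmg3 (−0.0771 to 0.0985), Psmg4 (−0.0255 to 0.0807), Nfe2l2 (−0.059 to 0.374), Pomp (−0.028 to 0.4067) and Sem1 (−0.1435 to 0.0154). The replicate numbers did not pair the arrays: deviations of same-numbered arrays correlated at −0.172, 0.092 and −0.249. Arrays of unlike number correlated at −0.156 to 0.33. The highest value was that of Hspa4-/- replicate 1 with wild-type replicate 3, the arrays with the smallest SD over all probe sets (1.20 and 1.19). With the replicate block on 6 arrays, 3 members were higher and 1 lower at an unadjusted p under 0.05, where 5.59% and 4.33% of all genes were. With the block on 5 arrays, 8 were higher and 2 lower, where 6.5% and 4.15% of all genes were. In both forms 0 members passed the adjusted threshold, where 2 of all genes did on 6 arrays and 134 on 5. Psma5 (−0.0276) and Sem1 (0.0154) changed sign with the block on 5. Of 872 values of named genes under alternatives, 833 kept their direction and side of the threshold, 24 changed sign 11 passed in addition and 4, all of Tap1 on 5 arrays, no longer passed. Leaving out the lowest 25% of genes and, on 6 arrays, the replicate block cannot change a difference. Most named genes did not pass in the report either, so that tally is a weak check. The cause of the changes under alternatives was not tested. Where only 1 Hspa4-/- array remained, it was assumed to vary like the wild-type arrays. The number of arrays limits every result.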
